A study of Arabidopsis thaliana with 24 samples.

Results

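The genes *GRX480* (AT1G28480), *SAG101* (AT5G14930) and *SGT1A* (AT4G23570) of *Arabidopsis thaliana* were followed through a chitin treatment of the wild type and of a pair of insertion mutants. They were chosen by name, with earlier results of these data known. Each is the only gene that the array annotation pairs with its probe set, which makes 3 of the 22746 probe sets that are not controls. *GRX480* was read by probe set 261443_at, *SAG101* by 246600_at and *SGT1A* by 254211_at.

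Plants detect fungal chitin at the cell surface, and the early transcriptional response to it overlaps with that to other microbial patterns. *GRX480*, also called ROXY19, is a glutaredoxin induced by salicylic acid that binds TGA transcription factors, and when overexpressed it represses the jasmonate-responsive defensin gene *PDF1.2*. *SAG101* is a lipase-like protein that pairs with EDS1 and acts downstream of intracellular immune receptors of the TIR class. *SGT1A* is a co-chaperone that works with HSP90 on immune receptors and on ubiquitin ligases, and it has a close copy in the genome, *SGT1B*.

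The samples were whole seedlings grown for 14 days in liquid culture, each sample a pooled flask, and then given water (mock) or hydrolysed crab shell chitin at 100 mg per litre for 30 min. The lines were Col-0, the wild type, *atl9* (labelled rre1-1, a T-DNA insertion in the ubiquitin ligase gene *ATL9*) and *rre2-1* (a T-DNA insertion in the related gene *ATL2*). Each mutant was a single allele, so an effect of the gene and of that insertion line cannot be told apart. There were 4 biological replicates in each of the 6 groups of line and treatment, 24 ATH1 arrays in all, and for Col-0 given chitin 1 label field reads untreated where the titles read chitin.

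Values are the deposited signal divided by the median signal of the same array, so a value of 1 is the median probe set. Array medians lay between 138.7 and 189.3, and in every line their mean was lower after chitin, for example 153 against 176 in Col-0. Mock and chitin samples ran on different fluidics modules of the array station, so the effect of the module cannot be told apart from that of chitin. The arrays were scanned on 4 days, and the last of these held 2 arrays of each group. The 2 mutated genes were not analysed here, so the mutant labels were not checked against them. In whole seedlings, fewer cells of a type and less RNA per cell cannot be told apart.

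*GRX480* rose after chitin in all 3 lines, by 1.82-fold in Col-0, 2.84-fold in *atl9* and 2.76-fold in *rre2-1*. In Col-0 the 4 mock samples read 13.0, 13.9, 15.1 and 17.3 times the array median, and the 4 chitin samples 31.96, 25.8, 23.9 and 25.9 times. In *atl9* the mock samples read 17.7, 11.8, 11.7 and 12.0, and the chitin samples 31.2, 45.4, 37.4 and 36.2. In *rre2-1* the mock samples read 8.92, 12.1, 23.0 and 14.3, and the chitin samples 35.7, 34.9, 39.8 and 41.7. All 12 mock samples lay below all 12 chitin samples, and the closest pair was *rre2-1* mock replicate 3, at 23.0, and Col-0 chitin replicate 3, at 23.9. In *atl9* mock, replicate 1 stood above the other 3, which read almost alike.

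The limma estimate of the *GRX480* response, on the log2 scale, was 0.86 in Col-0 (SE 0.16, adjusted p = 0.00132), 1.51 in *atl9* (SE 0.16, adjusted p = 4.36e-06) and 1.47 in *rre2-1* (SE 0.22, adjusted p = 0.000143). Across all 16605 probe sets tested, 11.4% were called higher after chitin in Col-0, 7.54% in *atl9* and 8.29% in *rre2-1*. The signed change of *GRX480* exceeded that of 93.8% of probe sets tested in Col-0, 97.4% in *atl9* and 96.8% in *rre2-1*. Within a scan day the log2 difference was 0.99 and 0.89 in Col-0, 1.40, 1.63 and 1.50 in *atl9*, and 1.72, 0.85 and 1.64 in *rre2-1*. Every one of these within-day differences was positive, and the lowest of *rre2-1* came from day 3, which holds its high mock sample. The Col-0 difference was 0.55 after quantile normalization, below the value reported here by more than 1.5 times, and still called (adjusted p = 0.00851). On scan day 4 alone, with 2 arrays a group, it was 0.89 and not called (adjusted p = 0.105), while the values of both mutants stayed called.

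**Figure D1:**
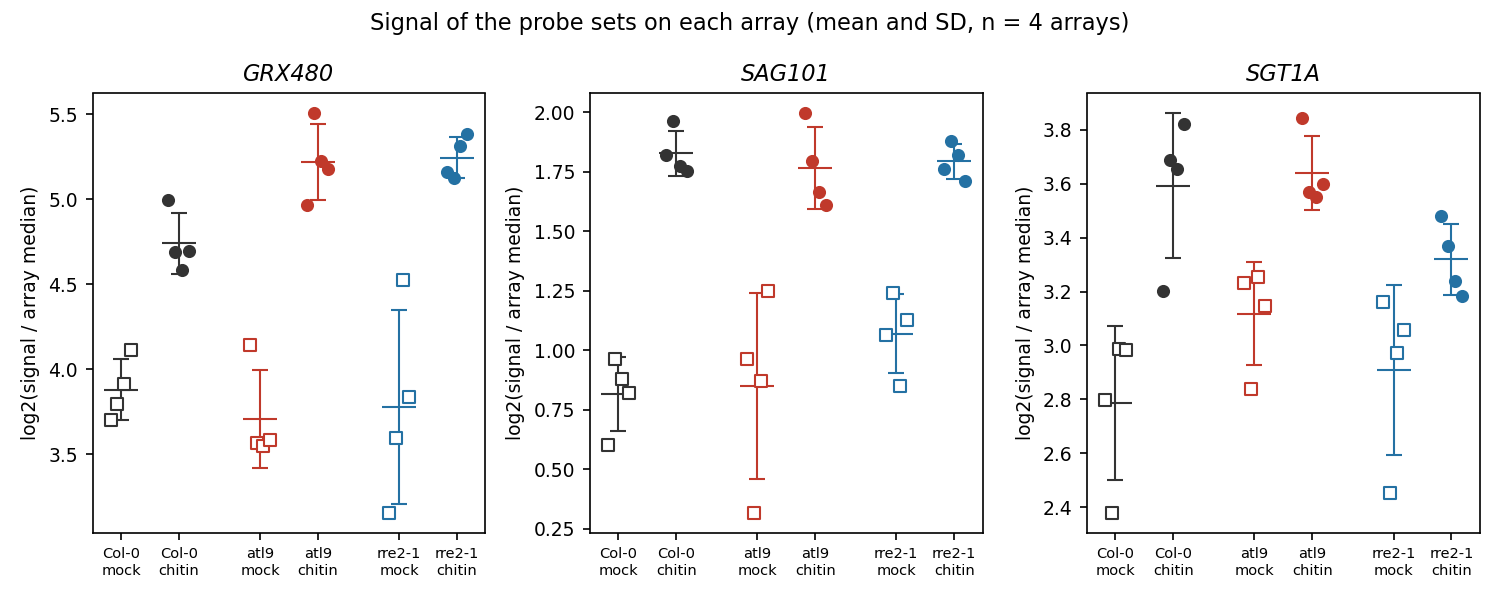
Log2 of the signal over the array median (y axis) for *GRX480*, *SAG101* and *SGT1A* on each of the 24 arrays, by line and treatment (x axis); open squares are mock samples, filled circles chitin samples, and the lines give the mean and SD of 4 arrays. Chitin samples lie above all mock samples of their own line in each of the 3 panels, and the y axes differ between panels. How many of all probe sets separate mock from chitin samples without overlap was not counted in any line.

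The 6 groups of *GRX480* fell into a lower set of mock groups and an upper set of chitin groups. Their mean log2 levels ran from 3.71 in *atl9* mock through 3.78 in *rre2-1* mock to 3.88 in Col-0 mock, then 4.74 in Col-0 chitin, 5.22 in *atl9* chitin and 5.24 in *rre2-1* chitin. Neighbours in this order overlapped except at the step from Col-0 mock to Col-0 chitin.

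In mock samples neither mutant was called different from Col-0 for *GRX480*, with log2 differences of -0.17 in *atl9* (adjusted p = 0.870, 95% interval -0.51 to 0.17) and -0.10 in *rre2-1* (adjusted p = 0.986, 95% interval -0.56 to 0.36). The background of calls in these comparisons was 0.00602% and 0%. For *rre2-1* against Col-0 in mock samples limma called 0 probe sets, 958 were under an unadjusted p of 0.05, and a linear model without variance moderation also called 0.

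After chitin, *GRX480* read higher in both mutants than in Col-0, but neither difference passed the test. The log2 difference was 0.48 in *atl9* (95% interval 0.14 to 0.81, adjusted p = 0.0626) and 0.50 in *rre2-1* (95% interval 0.04 to 0.96, adjusted p = 0.171), where 12.1% and 7.29% of probe sets were called in either direction. The *atl9* chitin samples overlapped those of Col-0 by a single pair, 31.2 against 31.96, and the *rre2-1* chitin samples all lay above Col-0. How many of all probe sets separate the lines in this way was not counted. The call for *atl9* turned on the settings: it passed with the deposited scale (0.53, adjusted p = 0.0192), with quantile normalization (0.55, adjusted p = 0.0157), with an added offset or with a stricter signal filter. It also passed without *atl9* mock replicate 1 (adjusted p = 0.0357), an array that enters only through the shared estimate of the spread, or Col-0 chitin replicate 1 (0.56, adjusted p = 0.0440). Within a scan day the difference from Col-0 was 0.60 and 0.52 for *atl9* and 0.62, 0.80 and 0.29 for *rre2-1*.

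The test of whether the chitin response itself differed between lines was not passed for *GRX480*. The response was larger than in Col-0 by 0.65 on the log2 scale in *atl9* (SE 0.22, 95% interval 0.17 to 1.12, adjusted p = 0.198) and by 0.60 in *rre2-1* (SE 0.30, 95% interval -0.04 to 1.25, adjusted p = 0.418). In these interaction tests 0.452% and 0.151% of probe sets were called. Both mutants were set against the same 8 Col-0 arrays. Compared directly with each other, *atl9* and *rre2-1* differed in response by 0.04 (95% interval -0.56 to 0.65, adjusted p = 0.987). Without *rre2-1* mock replicate 3 the response of *rre2-1* was 1.71, and its excess over Col-0 was 0.85 (adjusted p = 0.134).

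*SAG101* rose in all 3 lines, by 2.02-fold in Col-0, 1.89-fold in *atl9* and 1.65-fold in *rre2-1*. The mock samples of Col-0 read 1.52, 1.95, 1.84 and 1.76 times the array median and the chitin samples 3.53, 3.90, 3.42 and 3.38. Those of *atl9* read 1.95, 1.25, 1.83 and 2.38 under mock and 3.99, 3.47, 3.18 and 3.05 after chitin. Those of *rre2-1* read 2.09, 2.37, 1.80 and 2.18 under mock and 3.40, 3.68, 3.53 and 3.27 after chitin. All 12 chitin samples lay above all 12 mock samples, whatever the line. The widest spread was in *atl9* mock, where replicate 2 was low and replicate 4 high.

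For *SAG101* the log2 response was 1.01 in Col-0 (SE 0.16, adjusted p = 0.000442), 0.92 in *atl9* (SE 0.16, adjusted p = 0.00105) and 0.72 in *rre2-1* (SE 0.11, adjusted p = 0.000263). Its signed change exceeded that of 95.2%, 94.7% and 91.5% of probe sets tested in the same order of lines. Within scan days the difference was 1.36 and 0.90 in Col-0, 1.68, 0.74 and 0.62 in *atl9*, and 0.58, 0.86 and 0.73 in *rre2-1*. Scan day 2 stood apart in *atl9*: it held both the lowest *atl9* mock sample, 1.25, and the highest *atl9* chitin sample, 3.99. With that day left out, a setting added after its values were seen, the *atl9* response was 0.66 and still called (adjusted p = 0.00970). On scan day 4 alone it was 0.62 and not called (adjusted p = 0.116), and that of *rre2-1* was 0.73 and not called (adjusted p = 0.0595).

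No difference between lines passed the test for *SAG101*. In mock samples the log2 difference from Col-0 was 0.03 for *atl9* (adjusted p = 0.987, 95% interval -0.32 to 0.38) and 0.25 for *rre2-1* (adjusted p = 0.858, 95% interval 0.01 to 0.49). After chitin it was -0.06 for *atl9* (95% interval -0.41 to 0.29, adjusted p = 0.839) and -0.04 for *rre2-1* (95% interval -0.28 to 0.21, adjusted p = 0.885). The mean log2 levels ran from 0.82 in Col-0 mock through 0.85 in *atl9* mock to 1.07 in *rre2-1* mock, then 1.77 in *atl9* chitin, 1.79 in *rre2-1* chitin and 1.83 in Col-0 chitin, and the step from mock to chitin was the only one without overlap. The response was lower than in Col-0 by values of -0.10 in *atl9* (95% interval -0.59 to 0.40, adjusted p = 0.890) and -0.29 in *rre2-1* (95% interval -0.63 to 0.05, adjusted p = 0.462), and the mutants' responses differed by 0.19 (adjusted p = 0.881).

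*SGT1A* rose in Col-0 by 1.75-fold, and its changes in *atl9* and *rre2-1*, 1.44-fold and 1.33-fold, did not pass the test. The Col-0 mock samples read 6.95, 5.20, 7.93 and 7.90 times the array median and the chitin samples 9.21, 12.9, 12.6 and 14.1. The *atl9* samples read 9.38, 7.16, 9.53 and 8.86 under mock and 14.4, 11.9, 11.7 and 12.1 after chitin. The *rre2-1* samples read 8.93, 5.47, 7.85 and 8.33 under mock and 11.2, 10.3, 9.45 and 9.09 after chitin. Within each line the mock and chitin values were apart, although in *rre2-1* the highest mock sample, 8.93, came close to the lowest chitin sample, 9.09. Replicate 2 was the lowest mock sample of each of the 3 lines, at 5.20, 7.16 and 5.47.

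For *SGT1A* the log2 response was 0.81 in Col-0 (SE 0.16, 95% interval 0.46 to 1.15, adjusted p = 0.00271), 0.52 in *atl9* (SE 0.16, 95% interval 0.18 to 0.87, adjusted p = 0.0529) and 0.41 in *rre2-1* (SE 0.18, 95% interval 0.02 to 0.80, adjusted p = 0.187). Its signed change exceeded that of 93.1%, 89.6% and 84.6% of probe sets tested. The *atl9* value sat at the threshold: it was called with a stricter signal filter (adjusted p = 0.0318), with all 24 arrays fitted together (adjusted p = 0.0451), and without Col-0 mock replicate 2 (adjusted p = 0.0273) or Col-0 chitin replicate 1 (adjusted p = 0.0284), arrays that enter only through the shared estimate of the spread. Within scan days the *atl9* difference was 1.00 on day 2 but 0.35 and 0.37 on days 3 and 4, and without day 2 it was 0.36 (adjusted p = 0.333). Col-0 gave 0.89 and 0.83 within scan days, the latter not called on scan day 4 alone (adjusted p = 0.149), and *rre2-1* gave 0.79, 0.21 and 0.32. Quantile normalization lowered the mutants' values to 0.33 in *atl9* (adjusted p = 0.296) and 0.22 in *rre2-1* (adjusted p = 0.544). The deposited scale gave 0.23 in *rre2-1* (adjusted p = 0.467), and without *rre2-1* mock replicate 2 the *rre2-1* value was 0.26 (adjusted p = 0.439). The Col-0 value moved with the settings too, and its lowest, other than with single arrays left out, was 0.58.

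The order of the *SGT1A* groups was Col-0 mock, *rre2-1* mock, *atl9* mock, *rre2-1* chitin, Col-0 chitin and *atl9* chitin, with mean log2 levels of 2.79, 2.91, 3.12, 3.32, 3.59 and 3.64. Every pair of neighbours in this order overlapped. The mock level of *atl9* was 0.33 above Col-0 (95% interval -0.01 to 0.68, adjusted p = 0.750) and that of *rre2-1* 0.12 above (adjusted p = 0.976). After chitin the differences from Col-0 were 0.05 for *atl9* (adjusted p = 0.876) and -0.27 for *rre2-1* (95% interval -0.66 to 0.11, adjusted p = 0.393). The responses of *atl9* and *rre2-1* differed from that of Col-0 by -0.28 (95% interval -0.77 to 0.21, adjusted p = 0.620) and -0.40 (95% interval -0.94 to 0.15, adjusted p = 0.549), so the smaller values in the mutants were not shown to differ from Col-0.

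**Figure D2:**
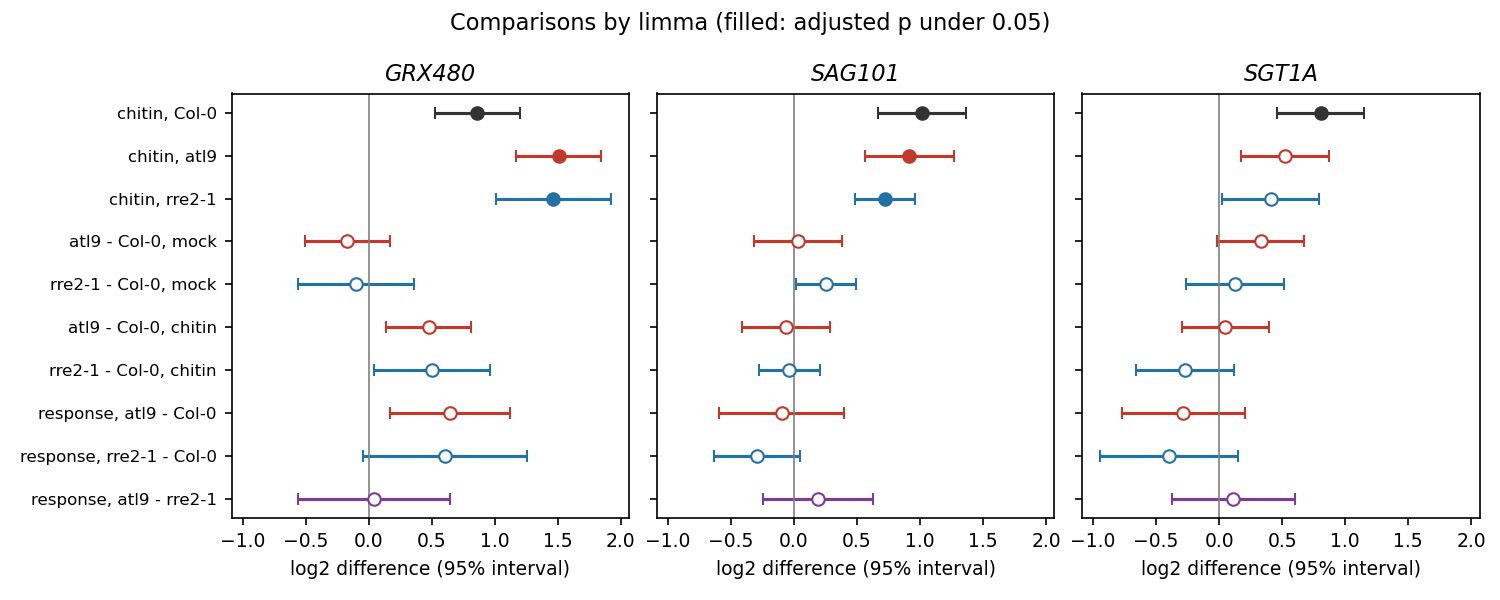
Log2 differences with 95% intervals from limma (x axis) for the 10 comparisons (y axis), with filled points where the adjusted p was under 0.05. All 3 genes are filled for chitin in Col-0 and *GRX480* and *SAG101* for chitin in the mutants, while every comparison between lines is open.

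Side by side, chitin raised 3 of the 3 genes in Col-0 and 2 of 3 in each mutant. Of all probe sets tested, 11.4% were called higher in Col-0, 7.54% in *atl9* and 8.29% in *rre2-1*. Because the 3 genes were chosen with earlier results known, these shares are given as a description. The median log2 change of the 3 was 0.86 in Col-0, 0.92 in *atl9* and 0.72 in *rre2-1*, where the median of all probe sets tested was 0.05, 0.01 and 0.00. In number, the *GRX480* response read higher in the mutants than in Col-0, and those of *SAG101* and *SGT1A* read lower. However, 0 of the 3 genes passed the interaction test in either mutant, where 0.452% (*atl9*) and 0.151% (*rre2-1*) of all probe sets did. In the direct test of *atl9* against *rre2-1* responses limma called 0 probe sets of all those tested, 1260 were under an unadjusted p of 0.05, and a linear model without variance moderation also called 0.

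**Figure D3:**
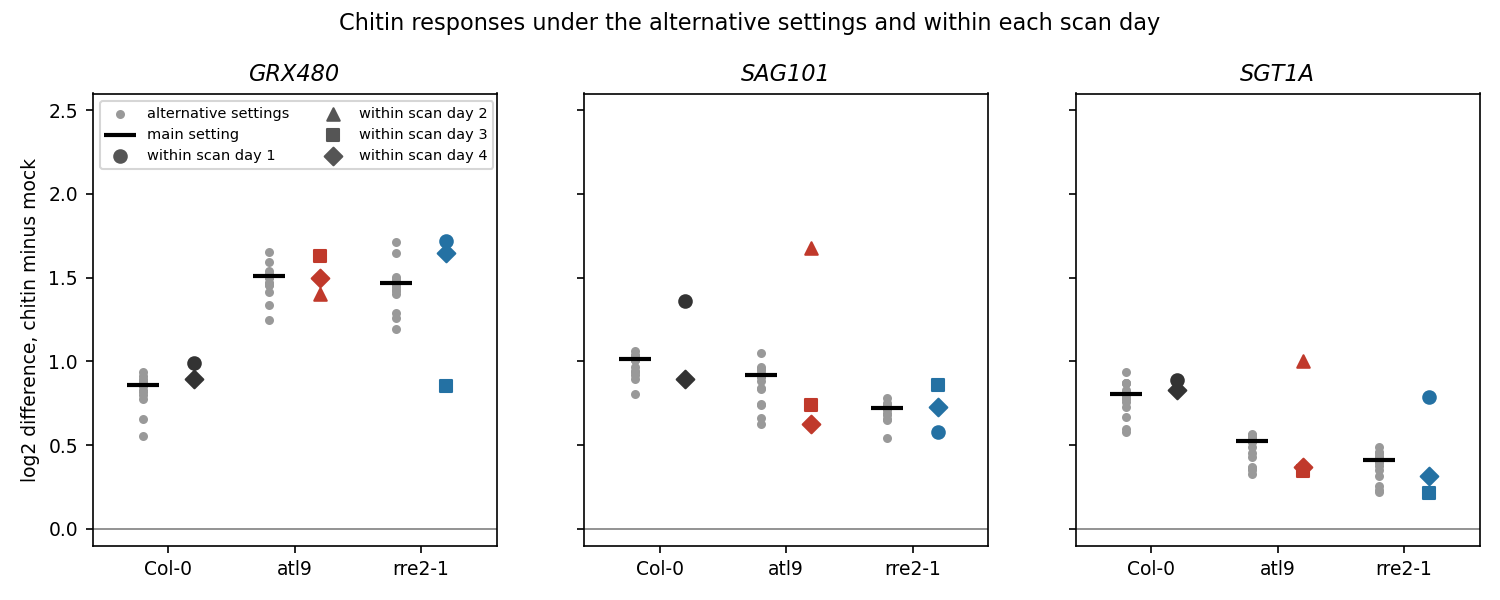
Log2 difference between chitin and mock samples (y axis) by line (x axis): the black bar is the reported value, grey points the alternative settings, and larger symbols the difference within a scan day. *GRX480* stays between 1.40 and 1.63 in *atl9* on every day, while *SAG101* and *SGT1A* in *atl9* have a day 2 value of 1.68 and 1.00, above their other days.

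Across the 24 arrays *GRX480* and *SAG101* were correlated at r = 0.80, *SAG101* and *SGT1A* at 0.72, and *GRX480* and *SGT1A* at 0.63. Once each group's mean was taken away the values were -0.13, 0.12 and -0.08, so the likeness lay in the group means. These arrays share their hybridisation and scan days, and the coefficients are given as a description.

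Among 9063 single-gene probe sets tested, those closest to *GRX480* over the 24 arrays were AT1G20310 (r = 0.977), AT1G69890 (0.972), AT5G58680 (0.971), AT2G18210 (0.970) and AT2G36220 (0.966), which the annotation leaves without a symbol. After group means were removed their r lay from 0.805 to 0.877. These neighbours were picked for a high r over the same arrays and the pairs among the 3 genes were not, so their values are not comparable. Closest to *SAG101* were AT5G48430 (r = 0.938), AT1G67470 (0.930), AT5G17350 (0.930), AT5G39670 (0.925) and AT3G01830 (0.924), with r between 0.246 and 0.558 after removal. Over the 24 arrays *SGT1A* had the weakest neighbours, AT2G44380 (r = 0.856), AT5G39020 (0.851), AT3G05320 (0.850), AT5G58110 (0.848) and AT1G72060 (0.839). After removal their r lay between 0.436 and 0.680, with both ends above those of the *SAG101* neighbours. All 5 neighbours of *GRX480* had a larger log2 response in both mutants than in Col-0, such as AT2G18210 at 0.95 in Col-0, 1.91 in *atl9* and 1.75 in *rre2-1*, a feature the correlation itself selects for.

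**Figure D4:**
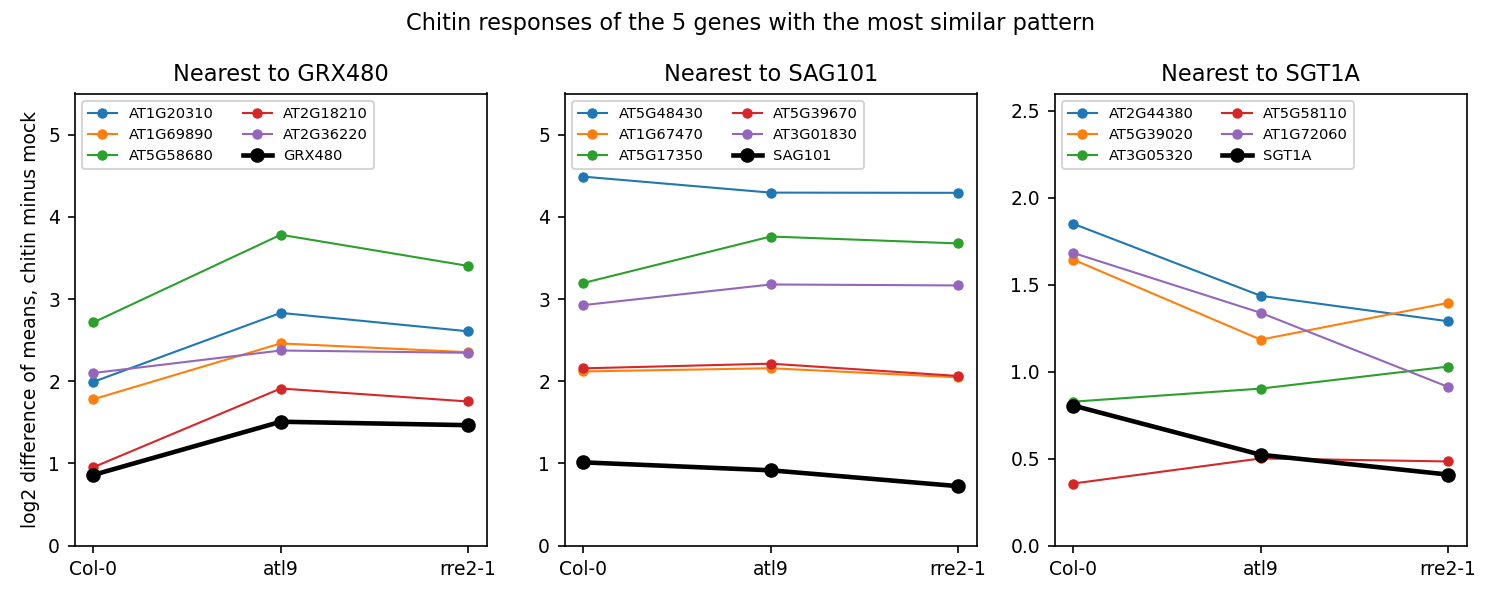
Log2 difference between chitin and mock samples (y axis) in Col-0, *atl9* and *rre2-1* (x axis) for *GRX480*, *SAG101* and *SGT1A* (black) and the 5 probe sets closest to each (colours). The neighbours of *GRX480* lie lowest in Col-0, and the y axis of the right panel is shorter.

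Of 61 other genes listed for salicylic acid signalling, the EDS1 node, jasmonate targets and the chaperone complex, 7 had a probe set of their own in the annotation and 5 passed the signal filter. *EDS1*, *PAD4*, *NPR1*, *RAR1* and *SGT1B* were not analysed here. In Col-0 chitin raised AT3G48080 (listed as *EDS1B*) by 0.47 (adjusted p = 0.0203) and AT5G52810 (listed as *SARD4*) by 0.86 (adjusted p = 0.0188), and *PDF1.2* fell by 1.30 on the log2 scale (adjusted p = 0.00515). That is 2 of 5 higher and 1 of 5 lower, against 11.4% and 5.52% of all probe sets. The Col-0 samples of *PDF1.2* overlapped, at 71.7 to 148 times the array median in mock and 30.8 to 91.4 after chitin. In *atl9* 0 of 5 were called, where 7.54% of all probe sets were called higher and 2.98% lower. In *rre2-1* only AT3G48080 was called, rising by 0.58 (adjusted p = 0.00830), where 8.29% of all probe sets were called higher. The median log2 change of the 5 was -1.10 in Col-0, 0.14 in *atl9* and 0.48 in *rre2-1*. That of all probe sets tested was 0.05, 0.01 and 0.00. The Col-0 median was the value of a gene that limma did not call there (adjusted p = 0.130).

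After chitin the *PDF1.2* signal was above Col-0 by 1.67 in *atl9* (adjusted p = 0.00261) and by 1.72 in *rre2-1* (adjusted p = 0.0145). The *rre2-1* samples read 68.5 to 222 times the array median and overlapped those of Col-0, at 30.8 to 91.4. Those of *atl9* read 118 to 173 and lay above Col-0, a separation that was not counted over all probe sets. A relation between *PDF1.2* and *GRX480* was not tested. AT5G52810 was lower in *atl9* after chitin, at -1.09 (adjusted p = 0.00889). *BSMT1*, a methyltransferase that makes methyl salicylate, was also called higher in *rre2-1* than in Col-0 after chitin, but at signals too low for a size to be given. It read 0.745, 1.71, 1.37 and 0.748 times the array median in *rre2-1* and 0.873, 0.0326, 0.152 and 0.0434 in Col-0, so the highest Col-0 sample overlapped the *rre2-1* samples. Both mutants were set against the same Col-0 arrays here too. Of the 5 genes 0 were called between lines in mock samples, and 0 in the interaction tests. The shares of all probe sets called, for *atl9* and *rre2-1*, were 0.00602% and 0% in mock samples. In the interaction tests they were 0.452% and 0.151%.

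Markers of green tissue moved with the treatment in Col-0. Of 10 shoot markers listed, 5 had a probe set, and 4 of those rose with chitin in Col-0 (median log2 change 0.78), where 11.4% of all probe sets were called higher and their median change was 0.05. In *atl9* 1 of the 5 was called lower, against 2.98% of all probe sets, and in *rre2-1* 0 were called in either direction, with median changes of 0.11 and -0.14 against 0.01 and 0.00 over all probe sets. Their summed level ranged from 83.2 to 117 times the array median in Col-0 mock and from 159 to 198 in Col-0 chitin, against 110 to 125 and 92.5 to 175 in *atl9*, and 80.3 to 140 and 74.9 to 112 in *rre2-1*. Of 10 root markers 3 had a probe set and 1 rose in Col-0, with sums of 107 to 123 in mock and 127 to 147 after chitin, 114 to 128 and 121 to 139 in *atl9*, and 110 to 136 and 123 to 156 in *rre2-1*. After chitin 3 of 5 shoot markers were called lower in *rre2-1* than in Col-0, against 4.44% of all probe sets, and 1 of 3 root markers was called lower in *atl9* than in Col-0, against 6.99%. In the *rre2-1* interaction test 1 shoot marker, the light-harvesting gene *LHCB4.2*, was called lower (-1.50, adjusted p = 0.0323), against 0.12% of all probe sets. No marker was at 0 on any array, and the lowest was the guard cell gene *FAMA*, at 0.345 to 1.10 times the array median. *LHCB4.2* and *FAMA* were named after their values were seen. The part of tissue make-up in the values of *GRX480*, *SAG101* and *SGT1A* was not tested in any line.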

How the data were processed

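Affymetrix ATH1 arrays (15 µg of labelled cRNA each) were read for 24 seedling samples. The authors deposited linear signal intensity values, made in the Affymetrix software and scaled to a target of 500 on each array. No detection calls were used, and the settings behind the signal were not given in the sources used here. Per the labels and file headers, the array scan records gave the scan day and the fluidics module and no other value. Each intensity was divided by its array's median over 22746 probe sets and log2 transformed, and testing was limited to the brightest 73% by mean over all arrays. With limma 3.58.1 in R 4.3.3, Col-0 was fitted with each mutant separately (16 arrays) and all 24 arrays were used to compare the mutants. Adjusted p-values are Benjamini-Hochberg over all 16605 probe sets tested, with a threshold of 0.05. The fit was tested on simulated data.

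Probe sets were paired with genes by the platform annotation, which lists 13513 with a single gene, 13436 of them matched to a locus of the TAIR10.1 table. The 3 genes, the other gene lists and the tests were chosen with earlier results of these data known. Named genes were the 3, the listed genes with an adjusted p under 0.05 in at least 1 comparison, and the 5 most correlated probe sets of each. AT3G48080 and AT5G52810 stand as *EDS1B* and *SARD4* in the gene list, and carry only their locus as a symbol in the TAIR10.1 table. Closely related copies may share a probe set's signal. Replicate numbers did not pair the samples: among 60 same-numbered pairs, 16 had a correlation over 0.1. With group means removed, the mean correlation between arrays of different groups was 0.0076 for the same number and -0.0023 for other numbers. For the same scan day it was 0.086, and for other days -0.042. The main fits held no scan day term. The number of arrays limits the precision. The alternatives were the deposited scale, no filter, a filter keeping 50% of probe sets, quantile normalization, an added offset of 32, each array left out, the replicate number or scan day as a block, scan day 4 alone, a joint fit, no variance moderation and, added after the data were seen, scan day 2 left out.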

Additional observations from a re-analysis of the deposited data

Results flagged for a closer look

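In groups of 4 samples a value far from the other 3 is picked out by Dixon's test, which by chance marks about 1 in 20 groups, and 2 of the 18 groups of gene, line and treatment were marked. *GRX480* in *atl9* mock replicate 1 had a log2 ratio to the array median of 4.14, above the other 3 samples by a gap of 0.941 of the range. Without it the *atl9* response was 1.65 (limma adjusted p = 1.30e-06). *SGT1A* in *atl9* chitin replicate 1 had a log2 ratio of 3.84, above the other 3 by a gap of 0.835 of the range. Without it the *atl9* response of *SGT1A* was 0.45 (limma adjusted p = 0.148).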

How the results depend on the processing

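With the replicate block the Col-0 response of *GRX480* was called at an adjusted p of 0.00530, *SAG101* at 0.00248 and *SGT1A* at 0.00502, the *atl9* response of *SGT1A* was not (0.0659), and no call of the 3 changed. It moved the *atl9* interaction calls from 75 to 23 and those of *rre2-1* from 25 to 0.

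On scan day 4 alone the chitin response of *GRX480* in Col-0 (0.89, adjusted p = 0.105), of *SGT1A* in Col-0 (0.83, adjusted p = 0.149), of *SAG101* in *atl9* (0.62, adjusted p = 0.116) and of *SAG101* in *rre2-1* (0.73, adjusted p = 0.0595) lost their calls. The *SGT1A* response in *atl9*, 0.52, was called with the stricter filter (0.0318) and the joint fit (0.0451), and ranged from 0.43 to 0.57 with each array left out. The *GRX480* difference of *atl9* from Col-0 after chitin was called on the deposited scale (0.53), after quantile normalization (0.55), with the offset (0.48, adjusted p = 0.0420) and with the stricter filter (0.48, adjusted p = 0.0404), and ranged from 0.38 to 0.56 with each array left out. The causes were not tested.

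Differences that turned sign were never called. With each array left out these were *atl9* minus Col-0 in mock for *SAG101* (-0.10 to 0.21) and after chitin for *SGT1A* (-0.081 to 0.12), the *atl9* interaction of *SAG101* (-0.27 to 0.036), *rre2-1* minus Col-0 in mock for *GRX480* (-0.35 to 0.11) and *SGT1A* (-0.012 to 0.28) and after chitin for *SAG101* (-0.064 to 0.0098), and the response difference of the mutants for *GRX480* (-0.21 to 0.25). On scan day 4 alone the *SAG101* difference of *rre2-1* after chitin was 0.034, and the response differences of the mutants were -0.14 for *GRX480* and -0.10 for *SAG101*. Without scan day 2 these were -0.061 for *SAG101* and -0.046 for *SGT1A*, and *atl9* minus Col-0 after chitin for *SGT1A* was -0.019.

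Chitin moved the median of all probe sets by -0.16, -0.16 and -0.18 in Col-0, *atl9* and *rre2-1* on the deposited scale. In Col-0 the calls split into 1893 higher and 916 lower as reported, 1164 and 2538 on that scale and 1375 and 1562 after quantile normalization, and the 3 genes kept direction. Counts that moved over 1.5 times included the *atl9* response (1747; 2672 as deposited, 796 on day 4), the *rre2-1* response (2007; 3232 and 931), the Col-0 response (2809; 764 on day 4), *atl9* minus Col-0 after chitin (2006; 1023 without day 2, 0 on day 4) and *rre2-1* minus Col-0 after chitin (1210; 779 unfiltered, 1 on day 4). The 75 *atl9* interaction calls became 141 with the offset, 11 unfiltered, 178 with the stricter filter, 37 with the scan day block, 0 without day 2 or on day 4, and 4 (without Col-0 chitin replicate 4) to 178 (without Col-0 chitin replicate 1) with an array left out. Those of *rre2-1* (25) ran from 0 to 145 over other settings and from 0 to 163 (without *rre2-1* chitin replicate 1) with an array left out. The planned promoter motif search was not run.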
